A study of Mus musculus with 13 samples.

Results

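The 37 genes described here encode the machinery that copies DNA and the enzymes and regulators active when a cell enters S phase. They were picked by name for their known roles, with earlier results of these data known, and all 37 were found by symbol among the 55291 symbols of the count tables. The libraries came from the CA1 area of wildtype C57BL/6 mouse entorhino-hippocampal tissue cultures, which are slices prepared at postnatal day 4 to 5 and kept for at least 18 days in vitro. CA1 receives excitatory input from CA3 through the Schaffer collaterals and from the entorhinal cortex. The 5 control cultures were non-lesioned, 4 cultures had a Schaffer collateral lesion (SCL) and 4 an entorhinal cortex lesion (ECL), with RNA isolated 3 days after the lesion. Each library held the CA1 isolate of a single culture, so neurons, glia and any dividing cell contributed to the same value. The cultures have no blood circulation, and the extraction text of the labels names a different hippocampal subfield from the sample titles.

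A cell copies its genome in ordered steps. In G1 the loading factors Cdc6 and Cdt1 place the ring of Mcm2 to Mcm7 on DNA, and in S phase Cdc45 and the GINS complex turn that ring into an active helicase. Polymerase alpha and primase then lay down primers, the clamp loader (replication factor C) sets the sliding clamp Pcna on the primer, and polymerases delta and epsilon extend the strand. Ribonucleotide reductase and thymidylate synthase supply the deoxynucleotides, and Fen1 and Lig1 join the fragments of the lagging strand. Mature neurons do not enter S phase, whereas glial cells and precursors can. Several of these genes also serve DNA repair, so their RNA is not a count of dividing cells.

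The promoters shown here belong to the members called in a comparison below, and to Mcm6 and Rfc3 as members whose windows hold words bound by E2F, the transcription factor family that drives S-phase genes. Lig1 has 3 windows, of which the only one with an E2F word is shown. Each runs from 250 bases before to 50 bases after the RefSeq start (build GRCm38.p6), 5′ to 3′ on the gene's strand. Capitals mark any of the E2F words TTTCCCGC, TTTCGCGC, TTTGCCGC and TTTGGCGC and the word CCAAT, on both strands. Neighbouring E2F words can overlap, as a pair of the 3 in Mcm6 does.
Rfc4, chr16:23127681-23127980, minus strand: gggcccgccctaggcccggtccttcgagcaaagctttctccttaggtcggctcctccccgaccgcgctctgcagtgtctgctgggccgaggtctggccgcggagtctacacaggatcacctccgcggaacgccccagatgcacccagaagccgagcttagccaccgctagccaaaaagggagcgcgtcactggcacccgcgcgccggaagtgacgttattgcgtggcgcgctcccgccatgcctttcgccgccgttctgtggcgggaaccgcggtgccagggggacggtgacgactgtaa
Rrm1, chr7:102441445-102441744, plus strand: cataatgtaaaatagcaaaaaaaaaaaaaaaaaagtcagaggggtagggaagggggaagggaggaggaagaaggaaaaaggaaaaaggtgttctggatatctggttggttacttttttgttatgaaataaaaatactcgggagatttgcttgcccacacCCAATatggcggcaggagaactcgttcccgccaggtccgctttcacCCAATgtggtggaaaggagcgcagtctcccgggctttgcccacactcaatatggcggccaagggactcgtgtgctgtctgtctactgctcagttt
Rrm2, chr12:24708004-24708303, plus strand: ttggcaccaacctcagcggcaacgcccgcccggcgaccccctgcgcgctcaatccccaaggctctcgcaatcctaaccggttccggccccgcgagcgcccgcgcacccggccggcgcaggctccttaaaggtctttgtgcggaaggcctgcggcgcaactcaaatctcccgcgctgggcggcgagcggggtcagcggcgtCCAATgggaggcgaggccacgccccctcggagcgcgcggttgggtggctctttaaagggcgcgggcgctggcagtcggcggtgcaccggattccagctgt
Tyms, chr5:30073576-30073875, minus strand: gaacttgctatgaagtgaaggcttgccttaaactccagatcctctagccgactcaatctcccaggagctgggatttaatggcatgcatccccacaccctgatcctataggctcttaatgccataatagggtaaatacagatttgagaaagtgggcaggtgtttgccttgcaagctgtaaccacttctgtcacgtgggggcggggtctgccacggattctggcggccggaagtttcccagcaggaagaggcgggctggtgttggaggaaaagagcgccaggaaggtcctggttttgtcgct
Lig1, chr7:13278576-13278875, plus strand: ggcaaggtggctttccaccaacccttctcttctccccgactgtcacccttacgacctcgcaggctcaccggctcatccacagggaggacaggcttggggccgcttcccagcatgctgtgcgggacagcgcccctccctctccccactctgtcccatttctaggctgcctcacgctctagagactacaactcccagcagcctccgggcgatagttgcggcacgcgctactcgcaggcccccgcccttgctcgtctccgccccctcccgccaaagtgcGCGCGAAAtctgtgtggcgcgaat
Rfc3, chr5:151651159-151651458, minus strand: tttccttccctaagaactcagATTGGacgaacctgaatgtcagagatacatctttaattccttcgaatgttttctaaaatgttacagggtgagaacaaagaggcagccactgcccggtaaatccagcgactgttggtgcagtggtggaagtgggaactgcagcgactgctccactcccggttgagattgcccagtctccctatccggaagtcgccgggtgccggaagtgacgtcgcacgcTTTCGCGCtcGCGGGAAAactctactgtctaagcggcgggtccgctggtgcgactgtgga
Mcm6, chr1:128359656-128359955, minus strand: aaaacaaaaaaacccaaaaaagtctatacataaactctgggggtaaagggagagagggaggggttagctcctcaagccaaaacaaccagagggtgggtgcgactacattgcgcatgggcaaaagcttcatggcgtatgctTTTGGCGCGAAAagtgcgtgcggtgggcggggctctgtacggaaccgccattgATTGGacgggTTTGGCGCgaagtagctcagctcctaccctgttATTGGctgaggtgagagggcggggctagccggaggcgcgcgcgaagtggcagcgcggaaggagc

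At least 1 promoter window was found for 29 of the 37 members (36 windows in all), and those of Mcm4, Gins1, Gins2, Rfc2, Prim2, Pole, Ccne2 and Gmnn were not analysed here. An E2F word stood in the windows of 12 of the 29 members (41.4%), namely Cdc6, Cdt1, Dnmt1, Lig1, Mcm3, Mcm5, Mcm6, Mcm7, Pola1, Pold1, Rfc3 and Uhrf1. Over all 27025 genes with a window the share was 2.6%, and over all 32851 windows it was 2.26%. The windows of Rfc4, Rrm1, Rrm2 and Tyms held no such word, which says only that these letters are not in these windows. CCAAT stood in the windows of 16 members (55.2%, against 41.1% of all genes), and the GC box GGGCGG, searched on both strands but not capitalised, in those of 22 (75.9%, against 38.2%). The word TTTGAA, known from promoters of mitotic genes, stood in those of 4 members (13.8%, against 20.2%).

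The libraries held between 14371152 and 56786613 counts. Controls had 14371152 to 21092612, SCL libraries 16405517 to 56786613 and ECL libraries 20210165 to 46449937. Values per library are given as CPM, the standard count rate that divides by library size, with TMM scaling of all 13 libraries together. By the file headings 3 of 5 controls, 3 of 4 SCL and 1 of 4 ECL cultures were female. The labels number the cultures as biological replicates, and the p-values measure the spread between them. All 9 markers of CA1 pyramidal neurons found in the tables passed the count minimum, with a summed level of 457.8 to 576.2 CPM in controls, 505.8 to 665.4 after SCL and 518.7 to 701.7 after ECL. The control libraries of both lesion comparisons were the same 5.

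Apart from Pcna, the replication genes had mean levels of at most 39.44 CPM over all libraries. Summed over the 37 members, the level lay between 389.5 and 458.6 CPM in controls. It was 456.8 to 535.6 CPM in the SCL libraries and 380.8 to 506.4 CPM in the ECL libraries. The control and SCL ranges overlapped slightly, and the ECL range covered that of the controls. The sliding clamp Pcna alone made up 22.0% of the summed level in controls, 21.4% after SCL and 20.8% after ECL. Per kb of exon, Pcna had the highest mean level over all libraries at 39.99 CPM per kb, followed by the clamp loader subunit Rfc4 at 11.9 and the licensing inhibitor Gmnn (geminin) at 10.72. At the other end stood Cdc6 at 0.241 CPM per kb. The chromatin assembly subunit Chaf1a and the flap endonuclease Fen1 were counted at 0.088 and 0.023 CPM per kb, but their exons overlap other genes over 52.5% and 84.2% of their bases, so their ranks are uncertain.

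**Figure D1:**
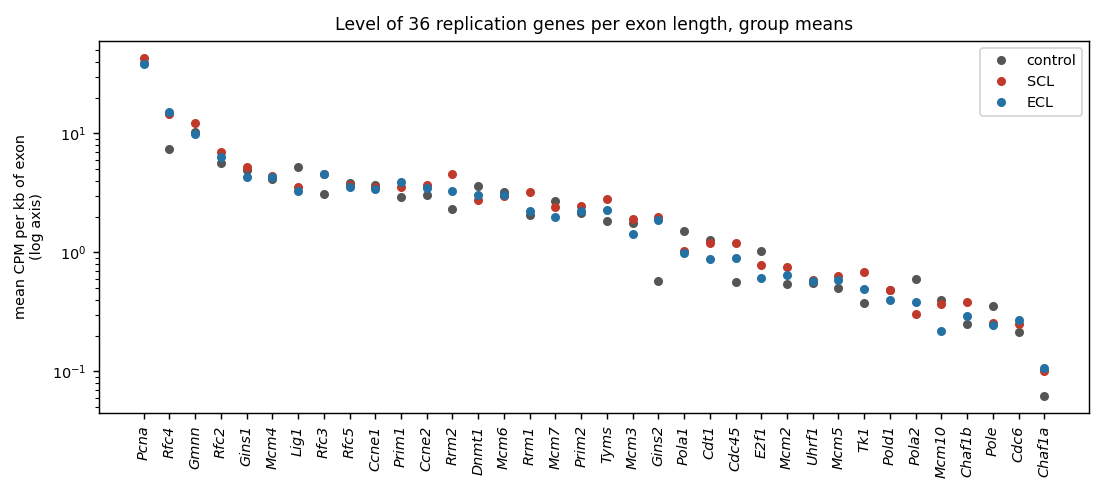
Mean level of 36 replication genes in control (n = 5), SCL (n = 4) and ECL (n = 4) libraries as CPM per kb of exon on a log axis, ordered by the mean over all 13 libraries; Fen1, with counts of at most 6, is left out. Pcna lies above all others at 39.99, and the controls lie below both lesion groups at Rfc4 and Gins2 and above them at Lig1.

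Genes were tested where their mean normalized count in the libraries compared reached 150. After SCL 21 of the 37 members passed, after ECL 19 (the same without Mcm3 and Gins1), and in the comparison of the lesions 23, while 14 passed in none. Of the 21 members tested after SCL, 4 were called higher and 0 lower by the edgeR quasi-likelihood test at an adjusted p under 0.05. They were Rfc4, Rrm1, Rrm2 and Tyms, which is 19.0% of the members tested, against 13% of all 11733 genes tested called higher and 11.6% called lower. Of the 19 members tested after ECL, 1 was called higher (Rfc4) and 1 lower (Lig1), 5.26% each, against 15.1% and 12.4% of all 11392 genes tested (27.6% in either direction, and 24.6% for SCL). For the members the median log2 change was 0.15 after SCL and 0.08 after ECL, where the median over all genes tested was 0.01 and -0.01. Values above 0 were found for 14 of 21 members after SCL and 10 of 19 after ECL. These medians moved with single libraries and settings. The median after SCL was 0.02 without SCL 1 (11 of 21 above 0), and after ECL it was -0.03 without ECL 1 (9 of 18 above 0). After ECL it was also -0.01 without control 5 and -0.04 in a single fit of all libraries, but 0.14 with DESeq2. The members ranged from -0.56 to 0.98 after SCL, and after ECL they spanned -0.65 to 1.02, so the estimates lay on both sides of 0. Whether the replication genes shared a common change was not tested. With TMM factors computed over all symbols the median of all genes shifted to 0.21 after SCL and 0.18 after ECL, and the calls over all genes were 2534 higher and 617 lower after SCL (1529 and 1362 in the main fit) and 2432 and 709 after ECL (1722 and 1417). Under that scaling the same 4 members were called higher after SCL, Rfc4 after ECL, and Lig1 no longer passed after ECL (edgeR adjusted p = 0.0747).

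**Figure D2:**
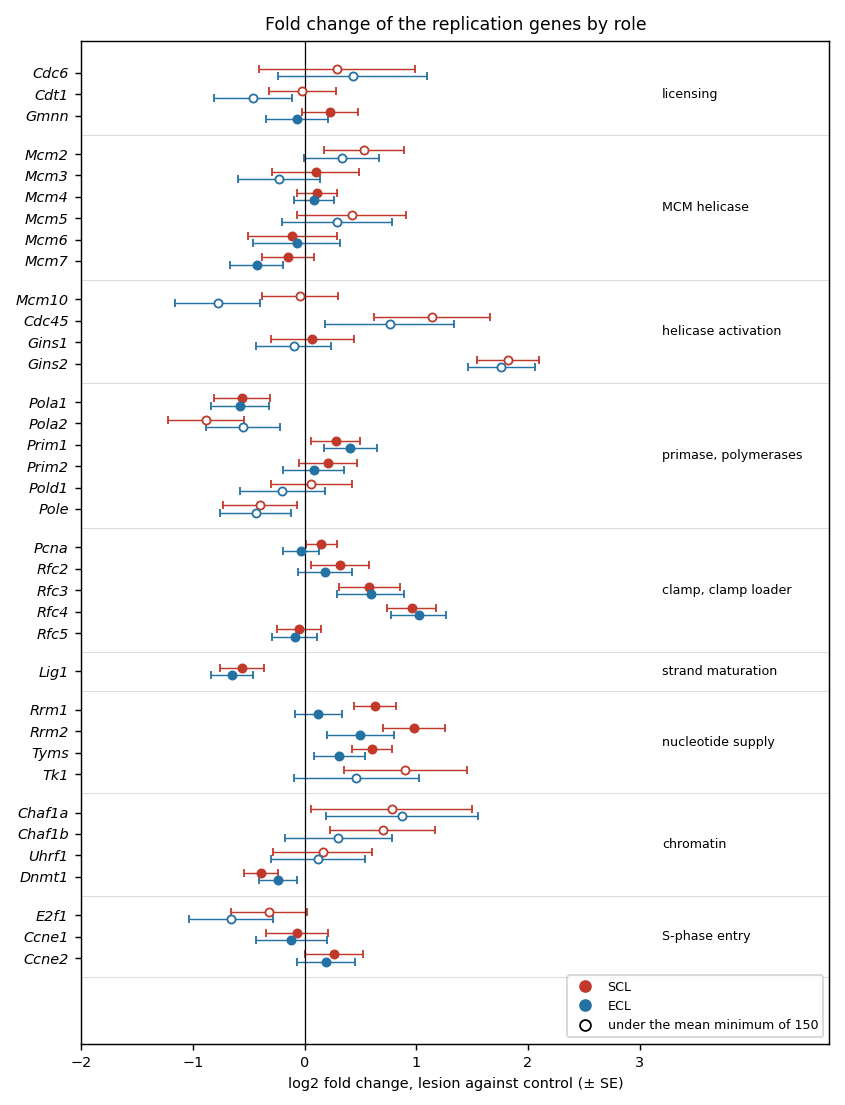
Log2 fold change against control of 36 replication genes, grouped by role, after SCL (red) and ECL (blue); bars are standard errors from edgeR, filled points come from the fit with the count minimum of 150, and open points, members under it, from the fit with the lower filterByExpr minimum. Nucleotide supply genes lie right of 0 after SCL, Rfc4 and Gins2 after both lesions, and Lig1 lies left of 0 after both.

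The genes for nucleotide supply were the group with the most calls after SCL, 3 of 3 members tested, and 0 of 3 were called after ECL. Of all genes tested, 13% were called higher after SCL and 15.1% after ECL. Rrm1, Rrm2 and Tyms all lost their calls without SCL 3, and also at a threshold of 0.01. Summed over Rrm1, Rrm2, Tyms and the salvage enzyme Tk1 (thymidine kinase), the level was 38.6 to 50.4 CPM in controls, 66.9 to 70.2 after SCL and 39.8 to 61.0 after ECL. All 4 SCL libraries lay above all 5 controls and all 4 ECL libraries, and the ECL libraries overlapped the controls. The sum is made up mainly of the 3 members called after SCL, so its separation adds no support to their calls.

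Rrm2, the small subunit of ribonucleotide reductase that is made mainly in S phase (chromosome 12, positions 24708241 to 24714146 in GRCm38), had 7.08, 5.84, 4.86, 10.5 and 3.83 CPM in the controls, 11.6, 12.3, 12.4 and 14.3 after SCL, and 10.3, 8.67, 5.93 and 11.3 after ECL. Every SCL library was higher than every control and every ECL library. The mean rose from 6.42 ± 2.57 (SD, n = 5) to 12.6 ± 1.14 (n = 4) after SCL, a log2 fold change of 0.98 ± 0.28 (SE, edgeR adjusted p = 0.0223). After ECL it was 9.06 ± 2.35 (n = 4), with a log2 fold change of 0.50 ± 0.30 (edgeR adjusted p = 0.233). Without SCL 3 the edgeR adjusted p after SCL was 0.052.

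Rrm1 encodes the large, catalytic subunit of the same enzyme (chromosome 7, positions 102441695 to 102469771), and had 19.5, 21.8, 20.7, 17.9 and 33.7 CPM in the controls, 33.5, 37.5, 33.7 and 36.1 after SCL, and 27.9, 24.8, 19.5 and 26.1 after ECL. Control 5 stood apart from the other controls and reached the lowest SCL library. Its mean went from 22.7 ± 6.31 (SD, n = 5) in controls to 35.2 ± 1.93 (n = 4) after SCL, a log2 fold change of 0.63 ± 0.19 (SE, edgeR adjusted p = 0.0266), and was 24.6 ± 3.61 (n = 4) after ECL (0.12 ± 0.21, edgeR adjusted p = 0.7). Without control 5 the log2 fold change after SCL was 0.81 (edgeR adjusted p = 0.00748). The call after SCL was lost without control 1, control 3, SCL 2, SCL 3 or SCL 4, with edgeR adjusted p of 0.0651, 0.0509, 0.0684, 0.0548 and 0.052.

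Tyms, thymidylate synthase, makes the thymidine nucleotide needed for DNA alone (chromosome 5, positions 30058202 to 30073617). It had 9.98, 10.8, 12.7, 10.7 and 11.8 CPM in the controls, 19.3, 15.1, 16.9 and 16.6 after SCL, and 20.4, 11.9, 11.8 and 11.0 after ECL. The SCL libraries all lay above the controls, and after ECL only ECL 1 did. The mean rose from 11.2 ± 1.06 (SD, n = 5) to 17.0 ± 1.74 (n = 4) after SCL, a log2 fold change of 0.60 ± 0.18 (SE, edgeR adjusted p = 0.0275), and was 13.7 ± 4.44 (n = 4) after ECL (0.31 ± 0.23, edgeR adjusted p = 0.34). Without ECL 1 the log2 fold change after ECL was 0.06. The call after SCL was lost without control 1, SCL 1 or SCL 3 (edgeR adjusted p of 0.0569, 0.0826 and 0.0678). Tk1 was below the count minimum, with means of 1.97 ± 1.39 CPM in controls, 3.55 ± 0.81 after SCL and 2.58 ± 0.80 after ECL, and its groups overlapped.

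**Figure D3:**
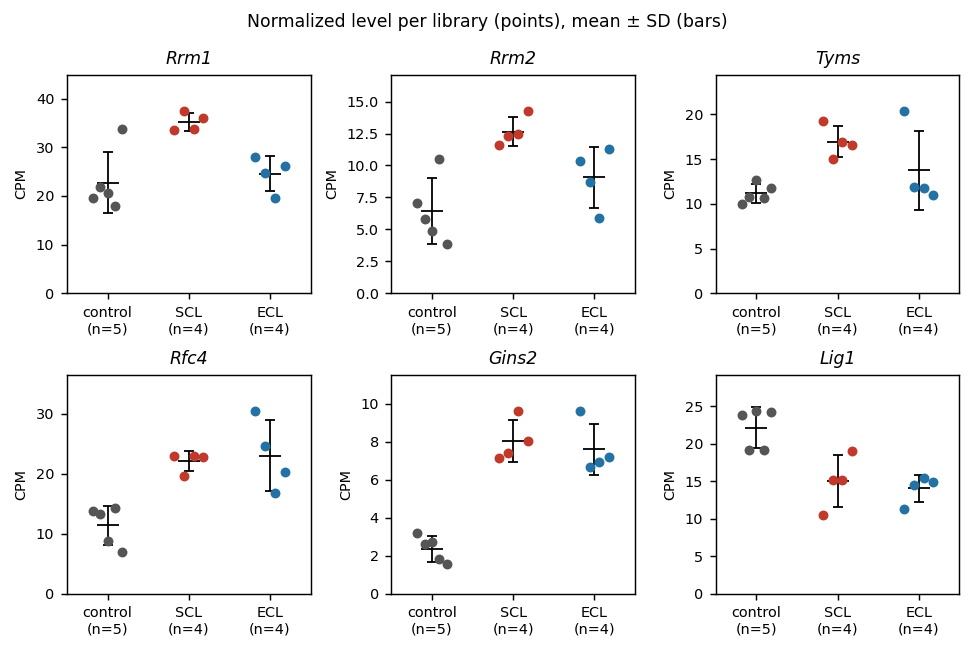
Level in CPM of Rrm1, Rrm2, Tyms, Rfc4, Gins2 and Lig1 in each control (n = 5), SCL (n = 4) and ECL (n = 4) library (points), with the group mean and SD (bars). The SCL libraries of Rrm2, Tyms, Rfc4 and Gins2 lie above all controls, control 5 reaches the SCL libraries in Rrm1, and Lig1 lies below the controls after both lesions.

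The clamp loader is a ring of a large subunit and 4 small ones, and Rfc4 is a small subunit (chromosome 16, positions 23113943 to 23127737). Rfc4 was called higher after both lesions. Its levels were 13.7, 13.3, 8.71, 14.2 and 6.98 CPM in the controls, 23.0, 19.5, 22.9 and 22.8 after SCL, and 30.4, 24.6, 16.7 and 20.2 after ECL. Every lesioned library was higher than every control, and the SCL and ECL libraries overlapped. The mean rose from 11.4 ± 3.29 (SD, n = 5) to 22.1 ± 1.68 after SCL and to 23.0 ± 5.90 after ECL (n = 4 each), with log2 fold changes of 0.96 ± 0.22 (SE, edgeR adjusted p = 0.00971) and 1.02 ± 0.25 (edgeR adjusted p = 0.00936). Of its exon bases 12.7% overlap Eif4a2 on the opposite strand, a far more abundant gene whose log2 fold change was -0.10 after SCL (edgeR adjusted p = 0.677) and -0.13 after ECL (edgeR adjusted p = 0.627).

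The other clamp loader subunits among the members were not called. Rfc3 gave 0.58 ± 0.27 on the log2 scale after SCL (SE, edgeR adjusted p = 0.126) and 0.59 ± 0.30 after ECL (edgeR adjusted p = 0.156), with all 4 SCL libraries between 15.4 and 17.6 CPM and the controls between 6.21 and 16.8. Rfc5 gave -0.05 ± 0.20 and -0.09 ± 0.20 (0.15 after SCL with TMM factors over all symbols), and 10.7% of its exon bases overlap Wsb2, which was called higher after both lesions. Rfc2 was the member with the second highest CPM, at 33.9, 36.6, 49.7, 38.7 and 17.9 in the controls, 62.6, 40.3, 36.7 and 36.6 after SCL, and 50.5, 30.6, 39.9 and 38.7 after ECL. SCL 1 lay far above the other SCL libraries, and all groups overlapped. The log2 fold change of Rfc2 was 0.32 ± 0.26 after SCL (edgeR adjusted p = 0.39; 0.10 without SCL 1 and 0.15 without control 5) and 0.18 ± 0.24 after ECL (edgeR adjusted p = 0.607). Lat2, which overlaps 15.1% of its exon bases, was at 0.67 ± 0.47 CPM in controls, 4.28 ± 1.14 after SCL and 4.60 ± 1.92 after ECL.

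Pcna holds the polymerases on DNA and is the usual tissue marker of replicating cells (chromosome 2, positions 132249162 to 132253314). It had 95.4, 83.4, 84.8, 108.9 and 95.7 CPM in the controls, 130.2, 91.6, 103.6 and 89.8 after SCL, and 109.6, 104.2, 67.6 and 82.8 after ECL. The groups overlapped throughout. The log2 fold change was 0.15 ± 0.14 after SCL (SE, edgeR adjusted p = 0.453) and -0.03 ± 0.16 after ECL (edgeR adjusted p = 0.904, or 0.16 on the log2 scale with TMM factors over all symbols).

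Lig1 seals the nicks between fragments of the lagging strand (chromosome 7, positions 13277283 to 13311433), and it was the only member called lower in these comparisons. Its levels were 23.9, 19.2, 24.3, 19.1 and 24.2 CPM in the controls, 10.5, 15.2, 15.2 and 19.0 after SCL, and 11.3, 14.4, 15.5 and 14.9 after ECL. Every ECL library was below every control, and the highest SCL library, SCL 4, nearly reached the lowest control. From 22.1 ± 2.73 (SD, n = 5) in controls the mean fell to 14.0 ± 1.85 after ECL (n = 4; log2 fold change -0.65 ± 0.19, SE, edgeR adjusted p = 0.0183) and was 15.0 ± 3.49 after SCL (n = 4; -0.56 ± 0.20, edgeR adjusted p = 0.0508). The call after ECL was lost without ECL 1 (edgeR adjusted p = 0.0612), and after SCL Lig1 passed the threshold without control 4 (0.0375) or SCL 4 (0.031), and with RLE factors (0.0481), DESeq2 (0.0458) or a single fit of all libraries (0.0344). Lig1 stayed below 0 under all alternatives tried in both comparisons.

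The genes of the Mcm ring were measured at levels that overlapped between the groups. Summed over Mcm2 to Mcm7, the level was 46.7 to 63.8 CPM in controls, 52.8 to 62.6 after SCL and 47.1 to 56.0 after ECL. None of the Mcm genes tested was called after SCL (0 of 4) or ECL (0 of 3), and their log2 fold changes lay between -0.15 and 0.11 in the SCL comparison and between -0.43 and 0.08 in that of ECL. With all 6 tested under the lower minimum of filterByExpr they lay between -0.09 and 0.53 after SCL, with Mcm2 at 0.53 ± 0.36 and Mcm5 at 0.42 ± 0.49, and between -0.37 and 0.33 after ECL. A difference from the nucleotide supply genes was not tested. Mcm4 varied little among controls (12.5 to 16.2 CPM), whereas Mcm6 ranged from 3.29 CPM in control 5 to 26.6 in control 4. The lowest Mcm6 level of the lesioned libraries was 11.7 CPM, in SCL 1.

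**Figure D4:**
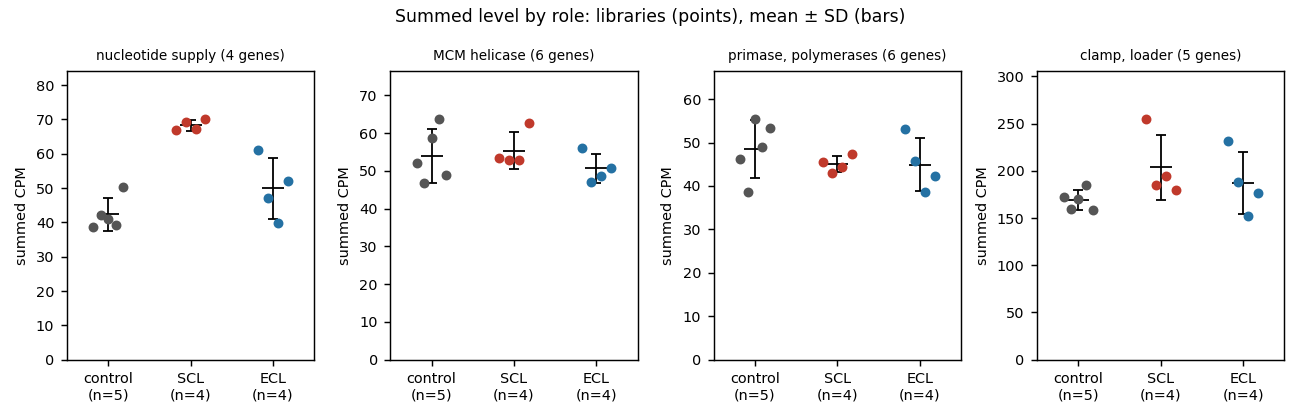
Summed level in CPM of members sharing a role in each library (points), with the mean and SD of control (n = 5), SCL (n = 4) and ECL (n = 4) libraries (bars). The nucleotide supply genes after SCL (66.9 to 70.2) lie above all other libraries, and in the other 3 panels the groups overlap. The nucleotide supply sum includes the 3 members called after SCL and adds no support to their calls.

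Among the factors that activate the helicase, Gins2 differed most between controls and lesions, but it was below the count minimum and is singled out after its values were seen. Gins2 is a subunit of GINS (chromosome 8, positions 120578633 to 120589304), and had 3.18, 2.63, 2.7, 1.80 and 1.54 CPM in the controls, 7.16, 7.39, 9.60 and 8.05 after SCL, and 9.61, 6.68, 6.94 and 7.21 after ECL. All lesioned libraries lay above all controls. In the filterByExpr fit, under which 36 members could be tested, the log2 fold change of Gins2 was 1.82 ± 0.28 after SCL (SE, edgeR adjusted p = 0.00253) and 1.76 ± 0.30 after ECL (edgeR adjusted p = 0.0011). Its annotated exons overlap Gse1 on the opposite strand over 67.3% of their bases, so its level is uncertain. Only 35.9% of the 100-base stretches of its transcripts are in no other gene's transcripts on either strand, a share that includes the same overlap. Gse1 itself was at 1.14 ± 0.42 CPM in controls, 0.81 ± 0.34 after SCL and 1.10 ± 0.59 after ECL.

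The filterByExpr fit called 5 members higher and 0 lower after SCL (Gins2, Rfc4, Rrm1, Rrm2 and Tyms), against 9.07% of all 20827 genes tested called higher and 7.57% lower. After ECL it called 2 higher (Gins2 and Rfc4) and 1 lower (Lig1) of 36, against 11.3% and 10.8% of 20904. Cdc45, which joins GINS on the ring, had 1.99 ± 1.12 CPM in the 5 controls, 4.18 ± 0.78 in the 4 SCL libraries and 3.15 ± 1.83 (SD) in the 4 ECL libraries. All 4 SCL libraries of Cdc45 lay above the controls, but its log2 fold change of 1.14 ± 0.52 did not pass (edgeR adjusted p = 0.143). Gins1 and Mcm10 overlapped between groups, and Mcm10 gave -0.78 ± 0.38 after ECL (edgeR adjusted p = 0.155).

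None of the primase and polymerase genes tested was called after either lesion (0 of 3 each). The catalytic subunit of polymerase alpha, Pola1, gave -0.56 ± 0.25 after SCL (SE, edgeR adjusted p = 0.118) and -0.58 ± 0.26 after ECL (edgeR adjusted p = 0.106). Its accessory subunit Pola2, tested only under filterByExpr, gave -0.88 ± 0.34 after SCL (edgeR adjusted p = 0.0849) and -0.55 ± 0.33 after ECL (edgeR adjusted p = 0.262). The primase subunits had values above 0 in both comparisons, at 0.28 and 0.41 for Prim1, which makes the RNA primer, and 0.21 and 0.08 for its partner Prim2. Pold1 and Pole, the catalytic subunits of polymerases delta and epsilon, were below the minimum at a mean over all libraries of 2.24 and 3.23 CPM, and their groups overlapped.

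Dnmt1, which copies DNA methylation onto the new strand, had 24.3 to 28.9 CPM in controls, 18.1 to 23.6 after SCL and 17.0 to 27.2 after ECL. All SCL libraries were below the controls, but the log2 fold change of -0.39 ± 0.15 did not pass (SE, edgeR adjusted p = 0.0735), and after ECL it was -0.24 ± 0.17 (edgeR adjusted p = 0.315). Its partner Uhrf1 and both chromatin assembly genes were below the minimum. Chaf1a, the least abundant member but for Fen1, had 0.22, 0.37, 1.76, 0.22 and 0.20 CPM in the controls, 1.37, 0.50, 0.83 and 0.89 after SCL, and 0.81, 0.74, 1.00 and 1.22 after ECL. Control 3 was above all other libraries, and the groups overlapped. In the filterByExpr fit Chaf1a gave 0.78 ± 0.72 after SCL (edgeR adjusted p = 0.481) and 0.87 ± 0.68 after ECL (edgeR adjusted p = 0.398). Its exons overlap Ubxn6 over 52.5% of their bases, so its level is uncertain.

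Genes of the entry into S phase were not called. The cyclins E, which activate Cdk2 at the G1 to S transition, gave -0.07 ± 0.28 (Ccne1) and 0.26 ± 0.26 (Ccne2) after SCL and -0.12 ± 0.32 and 0.19 ± 0.26 after ECL. E2f1, the activator of S-phase genes, was below the minimum at 3.22 ± 1.00 CPM in controls, 2.46 ± 0.40 after SCL and 1.93 ± 0.63 after ECL. Gmnn, which blocks Cdt1 in S phase, gave 0.23 ± 0.25 after SCL and -0.07 ± 0.28 after ECL. The loading factor Cdc6 was among the 3 least abundant members, with 1.34, 1.26, 2.03, 0.93 and 0 CPM in the controls, 1.34, 1.00, 1.33 and 1.54 after SCL, and 1.76, 1.30, 1.44 and 1.13 after ECL. Apart from control 5, in which it had 0 counts, its libraries covered much the same range in each group.

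Fen1, which trims the flap ahead of each lagging-strand fragment, was barely measured. It had 0 counts in 7 of 13 libraries, which allows up to 3 counts in each by counting error alone, and at most 6 counts in any. In CPM it stood at 0, 0, 0, 0.16 and 0 in the controls, 0.11, 0.03, 0.11 and 0 after SCL, and 0, 0.04, 0 and 0.26 after ECL. Its exons overlap Gm10143 on the opposite strand over 84.2% of their bases, so no level of Fen1 can be given. Of the 100-base stretches of its transcripts 28.1% are in no other gene's transcripts on either strand, a share that includes the same overlap. With no strand in the counting, reads from a gene and its opposite-strand partner cannot be told apart, which touches Gins2, Fen1 and, over 52.5% of its exon bases (with Ubxn6), Chaf1a. Of the members, 35 had a count in every library.

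No member differed between the lesions after adjustment. In the direct edgeR test of ECL against SCL, 0 of the 23 members tested were called, and 0% of all 12478 genes tested were, while DESeq2 called 71 genes and edgeR called 217 with no filter on low counts and 54 without SCL 3, with 0 members among them. Rrm1 was lower after ECL than after SCL by a log2 fold change of -0.51 ± 0.14 (SE, unadjusted p = 0.00383 in the edgeR fit over all genes, adjusted p = 0.491), and Rrm2 by -0.47 ± 0.21 (unadjusted p = 0.0473, edgeR adjusted p = 0.67). These were the 2 members at an unadjusted p under 0.05, where 3.5% of all genes were higher and 3.85% lower at that level, 437 and 481 genes. They were also the 2 tested members whose ECL libraries all lay below the SCL libraries, against 2.3% of all genes, while 0 members had all ECL libraries above (1.55% of all genes). Rfc4 differed by 0.07 ± 0.18 and Tyms by -0.29 ± 0.21 (-0.54 without ECL 1). Values below 0 were found for 18 of 23 members, with a median of -0.09 (0.01 over all genes). With sex as a term, which differs between these groups, 11 of 23 were above 0 and the median was -0.02, and it was -0.19 without ECL 1 and -0.05 without SCL 1. The call of nucleotide supply genes after SCL and not after ECL is therefore not shown to be a difference between the lesions.

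Groups that did not overlap were about as frequent among the members as among all genes after SCL. Rrm2, Tyms and Rfc4 lay above the controls in all SCL libraries (3 of 21 tested, against 11.9% of all genes) and Lig1 and Dnmt1 below (2 of 21, against 11.4%). After ECL, Rfc4 lay above (1 of 19, against 12.8%) and Lig1 below (1 of 19, against 12.1%). At an unadjusted p under 0.05 in the edgeR fits, 5 members were higher and 3 lower after SCL (19.9% and 18.6% of all genes), and 1 was higher and 2 were lower after ECL (21% and 19.1%). The numbers of members behind these shares are too small to set them apart from all genes, and the difference was not tested.

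The median spread of the members among the controls was wider than that of all genes. The coefficient of variation over the 5 controls had a median of 28.9% for the 21 members with a mean count of at least 150 over all libraries, against 20.5% for all 11872 such genes. Over the 4 SCL libraries the medians were 15.4% and 16.0%, and over the 4 ECL libraries 20.5% and 17.3%. Members and all genes were not matched for count level. The median library total was 18225356 counts in controls, 33773026 after SCL and 23291778 after ECL. The part of counting error in this spread was not tested. Control 5 was the lowest control in 13 of 36 members, Fen1 left aside, and the highest in 7. ECL 1 was the highest ECL library in 20 of 36.

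Other genes of replication, from a list that holds no member, moved in both directions. Of 31 tested, 5 were called higher and 3 lower in the SCL comparison, and the ECL comparison gave 4 higher and 2 lower. These shares of 16.1% and 9.68% after SCL and 12.9% and 6.45% after ECL stand beside 13% and 11.6%, and 15.1% and 12.4%, of all genes. Slbp, the binding protein of histone mRNA, rose by a log2 fold change of 1.08 ± 0.24 after SCL (SE, edgeR adjusted p = 0.00864) and 1.25 ± 0.29 after ECL (edgeR adjusted p = 0.00649). Pole3, a small subunit of polymerase epsilon, rose by 0.65 ± 0.17 after SCL (edgeR adjusted p = 0.0146) and 0.63 ± 0.15 after ECL (edgeR adjusted p = 0.00847). Wdhd1, which ties polymerase alpha to the helicase, fell by 0.84 on the log2 scale after SCL (edgeR adjusted p = 0.024) and fell by 1.25 after ECL (edgeR adjusted p = 0.00322). Beyond the 4 members of nucleotide supply, 4 of 18 further genes of this pathway were called higher and 1 lower after SCL, while ECL gave 3 higher and 0 lower. The shares after SCL were 22.2% and 5.56%, against 13% and 11.6% of all genes. After ECL they were 16.7% and 0%, against 15.1% and 12.4%, and the differences were not tested. The further genes called included Nme1 (0.50 ± 0.13, edgeR adjusted p = 0.0142) and the CTP synthase Ctps (0.69 ± 0.21, edgeR adjusted p = 0.0339) after SCL. The mitochondrial kinase Dguok was called after both lesions (0.48 ± 0.16, edgeR adjusted p = 0.0437 after SCL, and 0.80 ± 0.17, adjusted p = 0.00404 after ECL), and Tk2 after ECL (0.88 ± 0.26, edgeR adjusted p = 0.0208).

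Genes that act after S phase gave higher counts of calls than the replication genes. Of 20 G2 and mitosis genes tested after SCL, 12 were called higher and 0 lower, with a median log2 fold change of 1.16, beside 4 of 21 and 0.15 for the replication members. After ECL it was 3 of 12 higher and 0 lower with a median of 0.20, beside 1 of 19 higher and 0.08. Spc25, a kinetochore protein, rose by 1.89 ± 0.18 after SCL (SE, edgeR adjusted p = 0.000172) and 0.94 ± 0.23 after ECL (edgeR adjusted p = 0.00817). The mitotic cyclin Ccnb2 rose by 3.25 ± 0.40 after SCL (edgeR adjusted p = 0.00104), and the centromeric histone Cenpa by 1.64 ± 0.30 after SCL (edgeR adjusted p = 0.0034) and 1.31 ± 0.32 after ECL (edgeR adjusted p = 0.00861). Between the lesions 0 of 22 mitosis genes were called. At an unadjusted edgeR p under 0.05, 14 of 22 were lower after ECL, against 2 of 23 replication members and 3.85% of all genes. The difference between both gene groups was not tested. Genes with low control levels passed the minimum more readily where they rose, such as Ccnb2, at a mean of 2.35 CPM in controls and 22.4 after SCL. The counts and medians of the mitosis genes can be raised by that. They also rest on different sets of genes after SCL and after ECL, so they show no difference between gene groups or lesions.

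**Figure D5:**
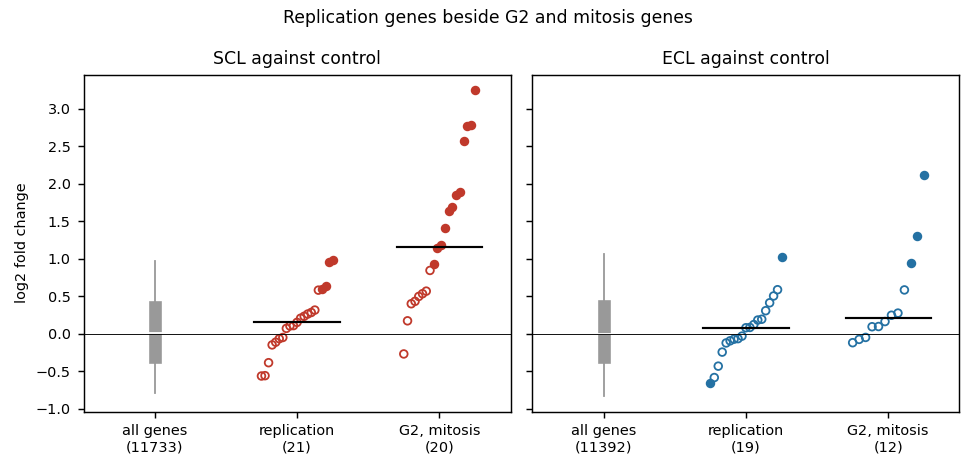
Log2 fold change after SCL and after ECL of the replication members and of the G2 and mitosis genes tested (points; filled where called by edgeR, bars are medians), beside all genes tested (thin line from the 5th to the 95th percentile, thick line the middle 50%, white mark the median). The mitosis genes have a median of 1.16 after SCL and 0.20 after ECL, and the replication genes 0.15 and 0.08. The genes tested differ between the comparisons, and genes with low control levels passed the minimum more readily where they rose.

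Regulators of the G1 to S transition were called higher in 0 and lower in 2 of 19 after SCL, and ECL gave 3 higher and 2 lower of 18. Their shares after SCL were 0% and 10.5%, against 13% and 11.6% of all genes. After ECL they were 16.7% and 11.1%, against 15.1% and 12.4%. Cdkn1b (p27), an inhibitor of the cyclin E kinase, fell by 1.86 on the log2 scale after SCL (edgeR adjusted p = 0.00157) and fell by 2.22 after ECL (edgeR adjusted p = 0.000225). Cyclin D2 (Ccnd2) fell by 0.46 after SCL (edgeR adjusted p = 0.0169), and cyclin D1 (Ccnd1) rose by 0.94 ± 0.22 after ECL (SE, edgeR adjusted p = 0.0066). Of 15 targets of p53, 2 were called higher and 3 lower after SCL, while ECL gave 1 higher and 4 lower, with Btg2, an inhibitor of proliferation, at -1.51 ± 0.15 and -1.26 ± 0.16.

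Markers of several cell types moved in the same libraries. In bulk tissue, fewer cells of a type and less RNA per cell cannot be told apart. Of 20 microglia markers, 18 were called higher after SCL and 12 after ECL (0 lower in both), and their summed level was 1257 to 1474 CPM in controls, 2337 to 4048 after SCL and 2220 to 3100 after ECL, without overlap with the controls. Astrocyte markers were called higher in 6 of 12 after SCL (0 lower) and in 4 of 12 after ECL (1 lower), with summed levels of 9695 to 15380, 12150 to 15420 and 10560 to 13420 CPM in control, SCL and ECL libraries. Markers of oligodendrocytes were called higher in 3 of 10 and those of their precursors in 1 of 9 after each lesion, with 0 lower. Of 8 dentate progenitor and immature neuron markers tested after SCL 0 were called, and after ECL 1 of 6 was lower, with summed levels of 246.6 to 350.4, 198.4 to 250.7 and 167.9 to 235.1 CPM. Endothelial and mural markers were lower in 1 of 4 after each lesion, and markers of blood macrophages and T cells higher in 1 of 4. CA1 pyramidal markers were higher in 1 and lower in 2 of 9 after SCL and higher in 1 of 9 after ECL. The precursor, dentate, endothelial, blood cell and CA1 pyramidal lists are too small to set their counts apart from all genes. No defining marker was at 0 in every library. The part of these cell types in the levels of Rrm1, Rrm2, Tyms, Rfc4 and Lig1 was not tested.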

How the data were processed

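RNA of 13 CA1 isolates was measured by polyA RNA-seq. Per the labels' processing notes the authors trimmed reads with cutadapt 3.5, aligned them to mm10 (GRCm38) with STAR 2.7.8a and counted per gene symbol with featureCounts 2.0.1, unstranded by the study's methods. The deposited values are raw counts, not normalized, and 63.0% to 74.3% of the counts between 1 and 20 were even, so both mates of a pair may have been counted. Groups came from the labels. Each pair of groups was fitted with the edgeR 4.0.16 quasi-likelihood test (R 4.3.3, two-sided), with genes whose mean normalized count reached 150 (the authors' base mean minimum), TMM over the genes tested and Benjamini-Hochberg adjustment over all of them at 0.05. Standard errors are the log2 fold change divided by the root of F. CPM used TMM over all 13 libraries, which also served for overlaps between groups. The procedure was tested on simulated data. Positions, exon lengths and overlaps came from GENCODE M21 (GRCm38). Alternatives were filterByExpr, no filter, other scalings, DESeq2 1.42.0, a single fit, sex, replicate block, halved counts, a stricter threshold and leaving out each library. Members called in any comparison and the 3 with the highest and lowest mean CPM are given for every library, and of each list at most 2 called genes per comparison are named. The members and lists were chosen with earlier results of these data known. Replicate numbers were taken from the labels (those in the file headings differ for some samples and were not used), and the main fits did not pair samples by them. The deviations from the group means of same-numbered libraries correlated from -0.16 to 0.54 across genes. Libraries with different numbers were not compared in this way, so the check cannot exclude a pairing.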

Additional observations from a re-analysis of the deposited data

Results flagged for a closer look

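Among 111 combinations of a member and a group, 9 held a library whose distance to its neighbour exceeded Dixon's critical value, where chance gives about 1 in 20. Rrm1 stood at 33.7 CPM in control 5, with the other controls between 17.9 and 21.8. Tyms was at 20.4 CPM in ECL 1 (others 11.0 to 11.9), and Mcm10 at 2.32 in ECL 1 (others 1.39 to 1.53). Rfc2 was at 62.6 CPM in SCL 1 (others 36.6 to 40.3). Rfc4 was at 19.5 CPM in SCL 2, below the other SCL libraries (22.8 to 23.0) and above all controls, and Pola1 at 11.1 in SCL 4 (others 8.09 to 8.48). Chaf1a was at 1.76 CPM in control 3 (others 0.201 to 0.368). Fen1 was at 0.164 CPM in control 4 and 0.261 in ECL 4, which are 3 and 6 counts.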

How the results depend on the processing

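After SCL the 4 members called became 7 with no filter on low counts and 1 at a threshold of 0.01, and leaving out each library gave 1 to 5 (2 without control 1, 1 without SCL 3). After ECL the 2 members called became 1 at a threshold of 0.01 and 1 with TMM factors over all symbols, and leaving out each library gave 1 to 2 (1 without ECL 1). Rfc4 kept its call in 20 of 20 alternatives after each lesion, while Rrm1 lost it in 6, Tyms in 5, Rrm2 in 2 and Lig1 after ECL in 5. ECL against SCL gave 0 members called under all alternatives, and of all genes DESeq2 called 71, no filter 217 and the fit without SCL 3 54. The replicate block also left out control 5, which has no partner of the same number, so changes under it cannot be credited to the block alone. With it 4 members were called after SCL, where Rfc3 passed (edgeR adjusted p = 0.0486) and Tyms did not (0.0664). After ECL 2 were called, where Rfc3 passed (edgeR adjusted p = 0.0372) and Lig1 did not (0.0596). With sex as a term 4 were called after SCL and 2 after ECL.

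Of values never called, Rfc5 after SCL turned to 0.16 with no filter and 0.15 with TMM factors over all symbols, and Pcna after ECL to 0.17 and 0.16. Leaving out each library, Ccne2 after SCL lay between -0.01 (without SCL 1) and 0.38, and in ECL against SCL Ccne2 lay between -0.25 and 0.21 and Rfc2 between -0.26 and 0.09 (the highest without SCL 1). In all, 87 of 1229 alternative values changed sign (-0.16 to 0.23 after the change), with 0 called. Over all genes, the number called was 5390 after SCL and 8034 after ECL with no filter, 4620 after ECL with filterByExpr, 1050 and 1495 at 0.01, and as low as 1672 without SCL 3, 1904 without SCL 2 and 2094 without ECL 4. The causes were not tested. Members with few counts, Fen1 and Chaf1a above all, allow no statement on small differences.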
